A study of Tribolium castaneum with 2 samples.

Results

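A set of 35 genes of the red flour beetle, *Tribolium castaneum*, stood at least 4-fold higher in larvae kept under hypoxia than in larvae kept in normoxia. They were chosen by that difference: of 16542 genes with a TC identifier, 6943 were above 0 in both libraries with a mean of 5 to 1000 FPKM, and the 35 are those whose log2 ratio of hypoxia over normoxia was 2 or more after 0.1 FPKM was added to both values. They make up 0.504% of the genes in this level range, and since the ratio itself picked them, that share and the ratios below are a description and not a result. FPKM are fragments scaled by transcript length in kilobases and by how many fragments of the library mapped, here summed over the transcripts of a gene. The set stops at the limits of the rule: another 28 genes with a mean under 5 FPKM and 1 gene with a mean over 1000 FPKM also had a log2 ratio of 2 or more, and 100 genes within the level range were listed at 0 in normoxia, which can be a failed estimate and gives no ratio.

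The hypoxia library came from wild type last-instar larvae, 20 days from oviposition, kept for 12 h in a sealed bottle filled with a mixture of 2% O2, 18% CO2 and 80% N2. The normoxia library came from wild type larvae of the same age kept in air for the same time. Low oxygen and high CO2 therefore cannot be told apart, and "hypoxia" stands for the mixture. Each library was made from poly(A) RNA of whole larvae pooled before sequencing, there was 1 library per condition, and the differences have no replicate check. The sample labels themselves only number the libraries, and which is which was taken from the legend of a supplementary figure of the study.

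Insect cells sense oxygen through prolyl hydroxylases, which need oxygen to tag the transcription factor HIF for degradation, so that HIF persists when oxygen is scarce and turns on its target genes. Most members of the set have no described function, and 2 carry a name. One is an ADFb like protein, named after an antidiuretic factor of the mealworm *Tenebrio molitor*, a peptide that slows fluid secretion by the Malpighian tubules, the kidneys of insects. The other is an antimicrobial peptide, of a class of small secreted peptides that act against bacteria and fungi and are made in the fat body and in epithelia. Another 7 members are annotated as uncharacterized proteins, and for the remaining 26 the sources used here hold no annotation.

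Levels of the 35 genes spanned 12.1 to 1567 FPKM in the hypoxia library, with a median of 63.8 FPKM, and 0.584 to 347 FPKM in the normoxia library, with a median of 7.52 FPKM. The other 6908 genes in the level range had medians of 28.4 FPKM in hypoxia and 30.2 FPKM in normoxia. The members thus sat above the typical gene in hypoxia and below it in normoxia, and 18 of them were under 10 FPKM in normoxia. Together they held 0.355% of the FPKM sum in hypoxia and 0.0566% in normoxia. Their log2 ratios ran up to 5.19, with a median of 2.48, while the median over the level range was -0.08.

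Cufflinks gives each FPKM a confidence interval, which covers how fragments of 1 library were counted and assigned and not the spread between larvae. Combined per gene, these intervals did not overlap between the libraries in 31 of the 35 members (88.6%), which are themselves 0.446% of the level range. Separate intervals were also found in 2400 of the 6908 other genes (34.7%) and in 53 of the 55 genes at least 4-fold lower in hypoxia (96.4%). A 4-fold difference makes separate intervals likely by itself, so nothing is read from the count. The half-width of the interval had a median of 22.3% of the FPKM in hypoxia and 32.5% in normoxia for the members, against 13.2% and 13.5% over the level range, so the members were measured less precisely than the typical gene. A range in parentheses after a log2 ratio is 2 standard errors from these intervals to either side.

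**Figure D1:**
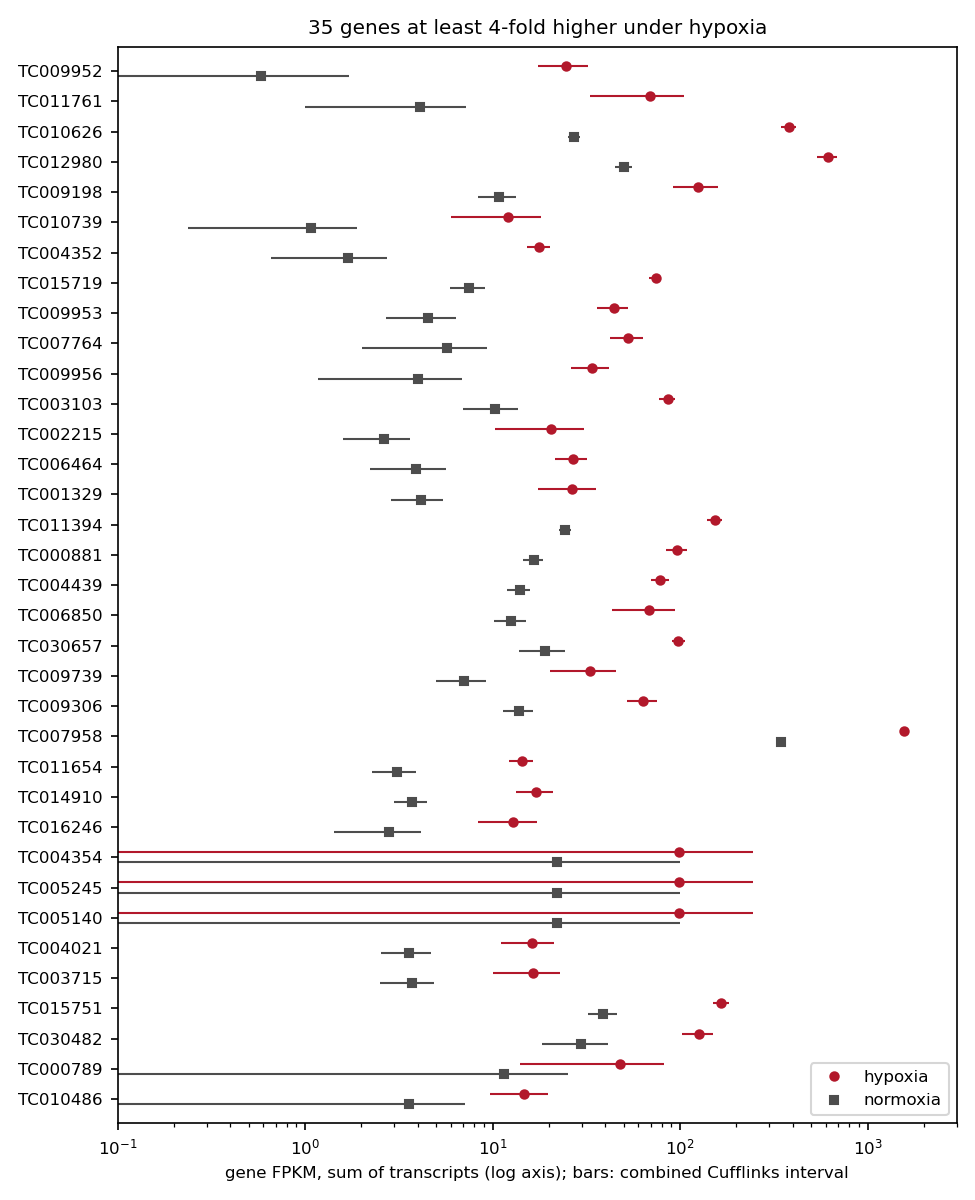
Summed FPKM of the 35 genes in the hypoxia library (red circles) and the normoxia library (grey squares) on a log axis, ordered by log2 ratio from 5.19 at the top to 2.01 at the bottom. Horizontal bars are the combined Cufflinks intervals, and those that reach 0 run to the left edge. In 31 genes the bars do not overlap, and the 4 exceptions are TC004354, TC005245, TC005140 and TC000789.

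Of the members, 3 lay within 12.8 kb of each other on linkage group ChLG7, among them the named ADFb like gene. TC009956, the ADFb like protein (ChLG7, 14519020 to 14519522, plus strand, 2 exons), had 33.9 FPKM in hypoxia and 4.01 FPKM in normoxia, a log2 ratio of 3.05 (2.00 to 4.10). TC009953 (14509433 to 14509894, 1 exon of 462 bases) had 44.4 FPKM in hypoxia and 4.54 FPKM in normoxia, a log2 ratio of 3.26 (2.62 to 3.90). TC009952 (14506726 to 14507109, 1 exon of 384 bases) had 24.8 FPKM in hypoxia and 0.584 FPKM in normoxia. Its log2 ratio of 5.19 (2.77 to 7.60) was the highest of the set, and it rests on a normoxia value whose interval reaches 0. All of these stood apart between the libraries by their intervals, and all lie on the plus strand.

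The genes between and beside them did not all share the difference. TC009957, annotated as an anti-diuretic peptide and the next gene after TC009956, was far more abundant, with 334 FPKM in hypoxia and 136 FPKM in normoxia, and with a log2 ratio of 1.30 it is no member. TC009955 had 3.74 FPKM in hypoxia and 0.689 FPKM in normoxia, a log2 ratio of 2.28 at a mean under the limit of the rule. TC009954 had 0.354 FPKM in hypoxia and 0.396 FPKM in normoxia, close to nothing in either library. TC008888 was listed at 0 in both libraries, and TC008887 had 0.513 FPKM in hypoxia and was listed at 0 in normoxia. The 14.7 kb from TC009952 to TC009957 thus hold 9 genes, of which 3 are members.

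The values of TC009952 and TC009953 are uncertain on 2 counts. Both overlap a gene on the minus strand, and the TruSeq kit used keeps no record of strand, so fragments of the partners cannot be told apart. TC009952 shares 306 of its bases, or 79.7%, with TC008890, which had 7.34 FPKM in hypoxia and 0.808 FPKM in normoxia. TC009953 shares 453 bases, or 98.1%, with TC008889, which had 8.29 FPKM in hypoxia and was listed at 0 in normoxia. Summed as pairs, the loci still differed by log2 ratios of 4.43 and 3.51. Second, the normoxia value of TC009953 comes from a spliced transcript of 5 exons that starts 65.5 kb upstream (14443910), and the hypoxia library holds a transcript with 3 of the same introns, at 11.2 FPKM, that runs on to TC009956. Without that transcript TC009956 had 22.7 FPKM in hypoxia, a log2 ratio of 2.47.

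**Figure D2:**
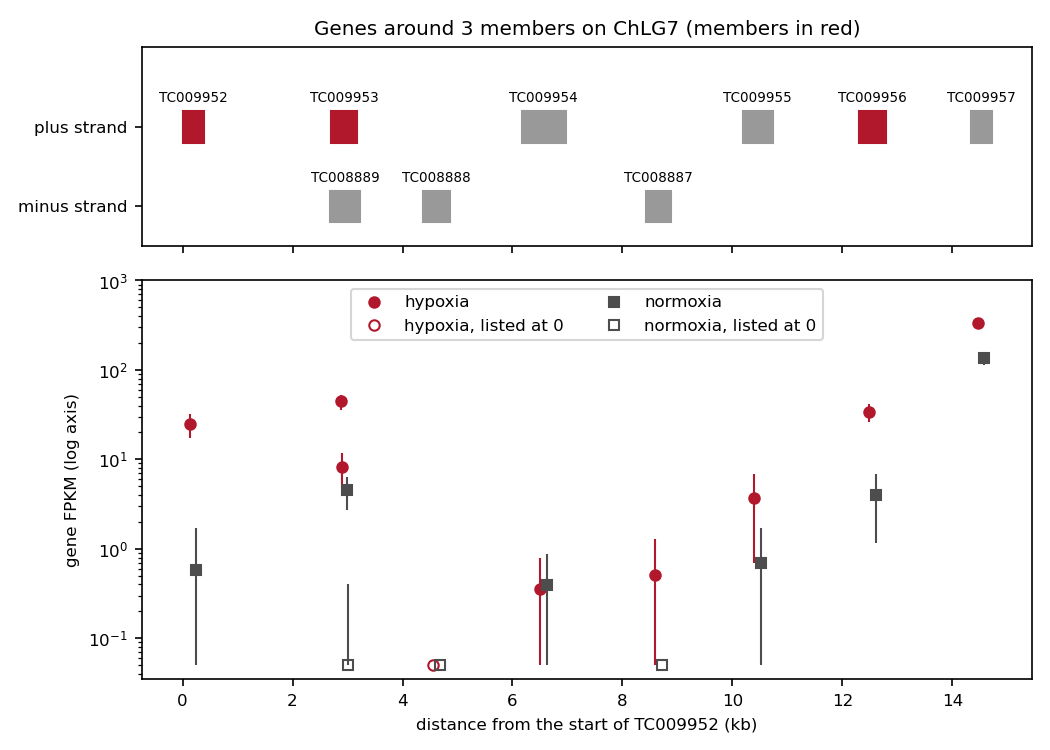
Genes by strand (upper panel) and their summed FPKM (lower panel, log axis) along ChLG7, by distance in kb from the start of TC009952. Red circles are the hypoxia library, grey squares the normoxia library, open symbols values listed at 0, and vertical bars the Cufflinks intervals, cut at the axis floor. TC009952, TC009953 and TC009956 are the members, and TC009957 at the right is the most abundant gene of the region in both libraries. TC008890, which overlaps TC009952 on the minus strand and starts left of it, is not drawn.

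The antimicrobial peptide TC030482 (ChLG2, 12902067 to 12902406, minus strand, 2 exons, 282 bases) had 126 FPKM in hypoxia and 29.7 FPKM in normoxia, a log2 ratio of 2.08 (1.46 to 2.69). The intervals of 102 to 149 FPKM in hypoxia and 18.3 to 41.2 FPKM in normoxia did not overlap. TC000500, the adjacent gene annotated as an antimicrobial peptide, had 155 FPKM in hypoxia and 83.4 FPKM in normoxia, a log2 ratio of 0.89. TC000501, which lies next to it, had 4.91 FPKM in hypoxia and 6.44 FPKM in normoxia. Within 1.744 kb, 1 of 3 genes thus reached the 4-fold limit, and the annotated peptide beside it was also higher in hypoxia, by less.

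Among the uncharacterized genes, 4 carried the reference transcript alone in both libraries and had separate intervals. TC007958 (ChLG4, 3780535 to 3781095, 2 exons) was the most abundant member, with 1567 FPKM in hypoxia and 347 FPKM in normoxia, a log2 ratio of 2.18 (2.06 to 2.29). TC015719 (ChLG6, 8843620 to 8845502, 2 exons) had 74.1 FPKM in hypoxia and 7.52 FPKM in normoxia, a log2 ratio of 3.28 (2.97 to 3.60). At 1833 bases it was the longest transcript among members without an assembled transcript. TC007764 (ChLG4, 232565 to 233059, 3 exons, 390 bases) had 52.9 FPKM in hypoxia and 5.69 FPKM in normoxia, a log2 ratio of 3.19 (2.24 to 4.15).

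TC015751 (ChLG6, 9624368 to 9627313, 3 exons) had 166 FPKM in hypoxia and 39.1 FPKM in normoxia, a log2 ratio of 2.09 (1.80 to 2.37). It closes a stretch of 21.8 kb in which the other 2 genes of its strand came close to the limit. TC015750 had 196 FPKM in hypoxia and 51.5 FPKM in normoxia, a log2 ratio of 1.93, and TC015749 had 35.2 FPKM in hypoxia and 9.31 FPKM in normoxia, a log2 ratio of 1.91. TC014953, the gene of the opposite strand in that stretch, had 50.3 FPKM in hypoxia and 52.3 FPKM in normoxia. The plus-strand genes of that stretch were higher in hypoxia by similar factors and the minus-strand gene was not. The next gene on the plus strand, TC015752, lies 3746 bases past TC015751. It had 4.02 FPKM in hypoxia and was listed at 0 in normoxia. By mean level per base, a measure given below, its log2 ratio was 0.45.

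The shortest members give the least. TC004354, TC005245 and TC005140 are 111-base single-exon genes on unplaced sequence, and each is listed with exactly 98.5 FPKM in hypoxia and 22.1 FPKM in normoxia. These values do not tell the genes apart, and their sequences were not compared. The 3 members may therefore carry 1 measurement. Their intervals reach 0 in both libraries, and the log2 ratio of 2.15 has a range of -3.31 to 7.62. TC000789 (ChLG2, 7509063 to 7509283, 168 bases) had 48.0 FPKM in hypoxia and 11.5 FPKM in normoxia, with intervals of 14.0 to 82.1 FPKM and 0 to 25.3 FPKM that overlap. At this precision a 4-fold difference was not resolved for these 4 genes.

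Cufflinks assembled each library separately, and the gene sums of the other members contain transcripts that it built itself. Of the 35 members, 10 (28.6%) consist of the reference transcript alone in both libraries, close to the 32.1% of the other genes in the level range. These 10 are TC009952, TC015719, TC007764, TC007958, TC015751, TC030482, TC000789, TC004354, TC005245 and TC005140. The other 25 have an assembled transcript in at least 1 library, and in 15 of the 35 (42.9%) it was assembled in hypoxia alone. Among the other genes in the level range 584 of 6908 (8.45%) had one in hypoxia alone. Of the 55 genes at least 4-fold lower in hypoxia (0.792% of the level range), 0 had one in hypoxia alone and 17 (30.9%) had one in normoxia alone. A transcript present in 1 library adds to the sum there, so the assembly moved together with the ratio that chose the genes, and other measures of the members are given below.

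**Figure D3:**
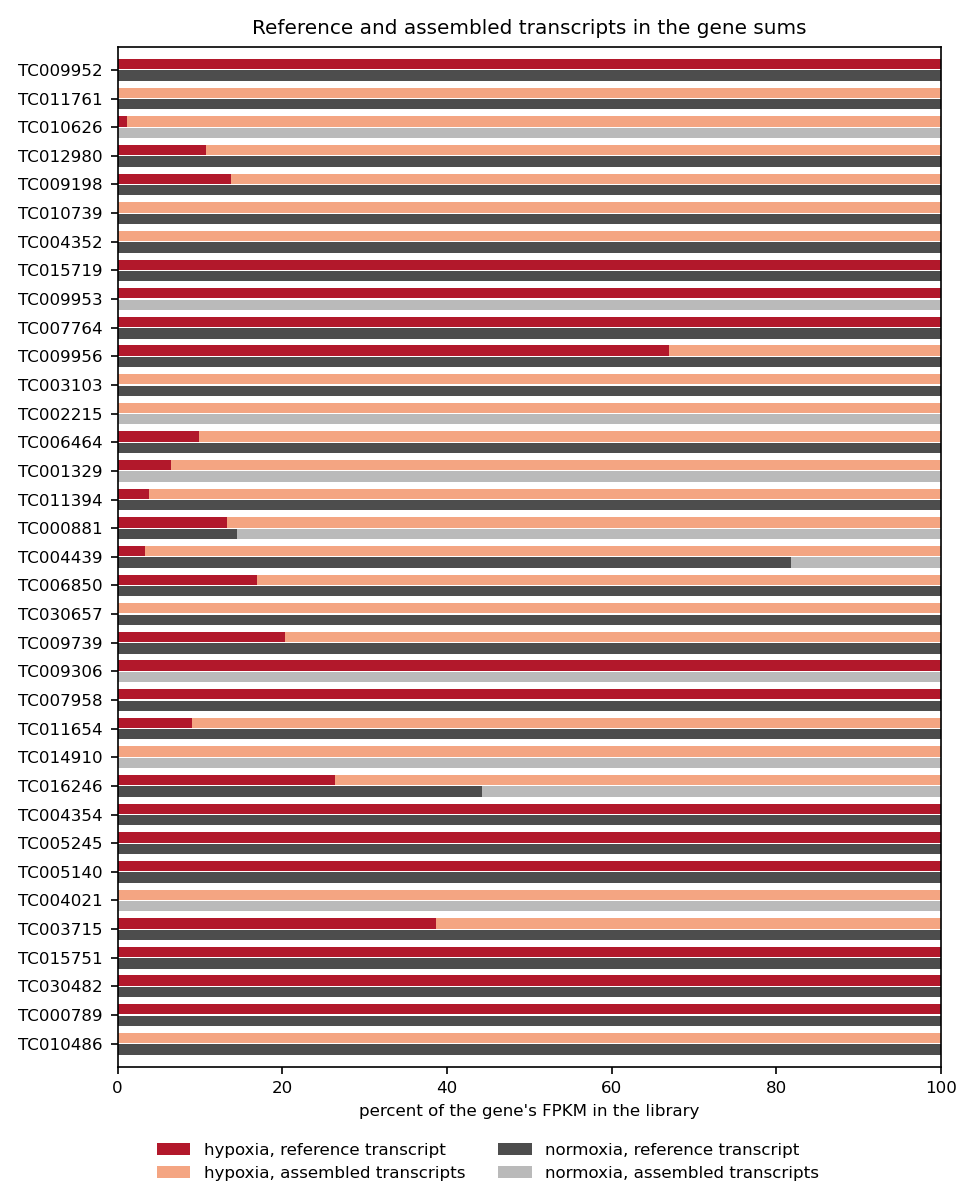
Percent of each member's FPKM from the reference transcript (dark) and from assembled transcripts (light), with the hypoxia library (red) above the normoxia library (grey) in each row and genes ordered by log2 ratio. In 10 rows both bars are dark throughout, and in 22 rows an assembled transcript supplies most of the hypoxia value.

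In 22 members a single assembled transcript supplied most of the hypoxia value, at least 54.9% of it. These leading transcripts were 177 to 1872 bases long with a median of 413.5 bases. Of the 22, 18 were shorter than the reference transcript and 9 were less than 0.25 of its length. FPKM is a level per length, so a short fragment can carry a high value while the rest of the gene hardly differs. TC010626 (unplaced, 10 exons, 7716 bases) shows this most: it had 380 FPKM in hypoxia and 27.3 FPKM in normoxia, a log2 ratio of 3.80 (3.63 to 3.96), but 345 FPKM of the hypoxia sum sat on a single-exon fragment of 352 bases. TC012980 (unplaced, 5 exons) had 614 FPKM in hypoxia and 50.2 FPKM in normoxia, and 548 FPKM of the hypoxia sum sat on a fragment of 210 bases. Neither fragment has a strand in the files.

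TC009198 (ChLG7, 4653862 to 4655614, 8 exons, uncharacterized) had 125 FPKM in hypoxia and 10.8 FPKM in normoxia, with 108 FPKM of the hypoxia sum on a spliced fragment of 218 bases. TC011394 (ChLG10, 7519508 to 7546344, 20 exons) had 153 FPKM in hypoxia and 24.4 FPKM in normoxia, while its reference transcript had 5.93 FPKM in hypoxia and 24.4 FPKM in normoxia and so differed the other way. For TC011761 (ChLG9, 18576883 to 18577595, 2 exons), 68.8 FPKM in hypoxia sat on a fragment of 177 bases, against 4.09 FPKM in normoxia on the 384 bases of the reference transcript. The reference transcript of TC011761 was listed at 0 in hypoxia and gives no ratio by itself.

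In TC004352 the assembled transcript was longer than the gene model. This single-exon gene of 975 bases (unplaced, 28799263 to 28800237) had 17.7 FPKM in hypoxia, all on an assembled transcript of 1595 bases, and 1.70 FPKM in normoxia, all on the reference transcript, a log2 ratio of 3.31 (2.45 to 4.17). TC010739 (unplaced, 3 exons, 1173 bases) was the lowest member in hypoxia at 12.1 FPKM, on a fragment of 329 bases, against 1.07 FPKM in normoxia. Both genes lie low in normoxia, and their intervals were separate.

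By the reference transcript alone, 22 members were above 0 in both libraries. Of these, 12 were at least 4-fold higher in hypoxia (over all reference transcripts alone, 1.34% of the genes above 0 in both libraries and in the level range were), 4 were higher by less and 6 were lower. The 12 include all 10 members with the reference transcript alone in both libraries, for which this ratio is the one that chose them. The others are TC000881 and TC009956, so nothing is read from 12 beside the 1.34%. The reference transcript was listed at 0 in hypoxia alone in 6 members, in normoxia alone in 4 and in both in 3. The reference transcript alone thus gives no ratio for 13 of the 35. Such zeros were common elsewhere too. In hypoxia the reference transcript was listed at 0 in 25.7% of the members and 18.5% of the other genes in the level range. In normoxia the shares were 20% and 19.4%.

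A second measure, chosen after the data were seen, spreads every transcript's FPKM over the reference exons it covers and takes the mean level per base of the gene, so that a short fragment counts only for its length. By that measure 17 of the 35 members remained at least 4-fold higher in hypoxia, 7 were 2-fold to 4-fold higher, 11 were higher by less than 2-fold and 0 were lower, with a median log2 ratio of 1.82. Over the whole level range 19 of 6943 genes (0.274%) were at least 4-fold higher this way, so 2 of them were not in the set. The 17 include all 10 members with the reference transcript alone, for which both measures are the same by construction, and 7 of the 25 with an assembled transcript. Those 7 are TC011761 (log2 ratio per base 2.69), TC004352 (3.31), TC009953 (3.26), TC009956 (3.04), TC003103 (2.50), TC030657 (2.36) and TC009306 (2.21), of which the last 3 are named here after their values were seen. TC003103 (ChLG3, 3 exons) had 85.9 FPKM in hypoxia and 10.3 FPKM in normoxia, and TC009306 (ChLG7, 2 exons) had 63.8 FPKM in hypoxia and 13.9 FPKM in normoxia. At the other end, TC010626 had a mean level per base of 19.0 FPKM in hypoxia and 17.4 FPKM in normoxia, a log2 ratio of 0.13, the lowest of the set. TC012980 kept a log2 ratio of 1.50, TC009198 one of 1.82, TC010739 one of 0.97 and TC011394 one of 0.32.

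**Figure D4:**
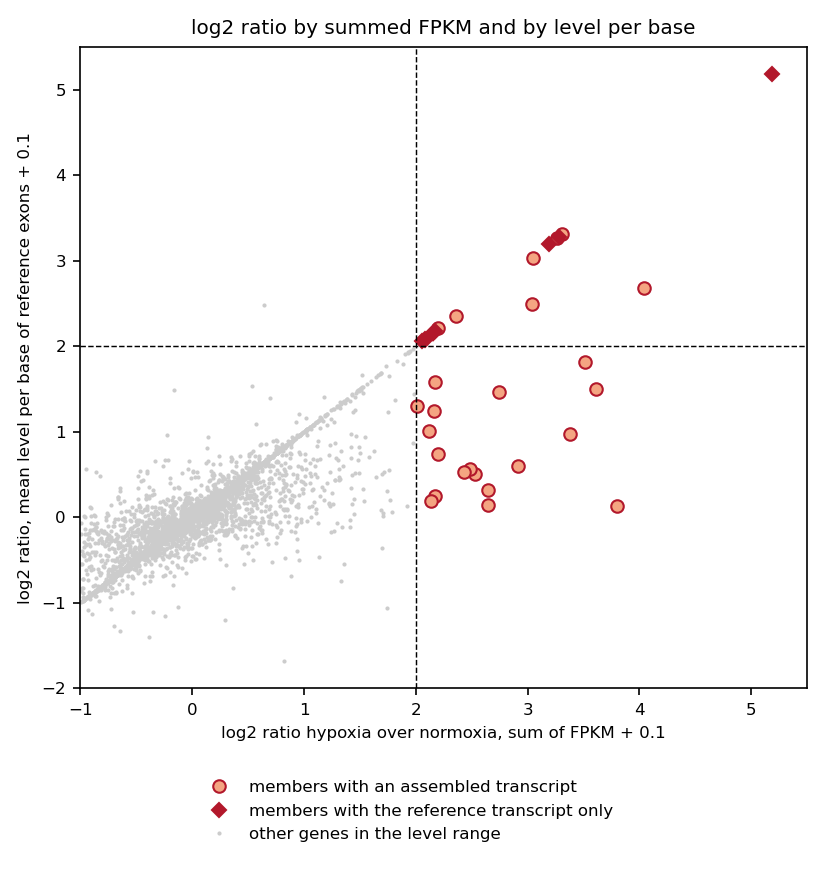
log2 ratio of hypoxia over normoxia by summed FPKM (x axis) and by mean level per base of the reference exons (y axis), 0.1 added in both. Filled diamonds are the 10 members with the reference transcript alone, circles the 25 with an assembled transcript and grey dots other genes of the level range with x above -1, and the dashed lines mark a log2 ratio of 2. All 35 members lie right of the vertical line by the rule, and 17 also lie above the horizontal line.

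Transcripts that join neighbouring genes touched 4 members. In TC030657 (ChLG9, 15529186 to 15529764) the hypoxia value of 98.1 FPKM sits on a transcript that also covers TC030690, whereas in normoxia TC030657 had 19.0 FPKM and TC030690 had 193 FPKM of its own. TC030690 was listed at 0 in hypoxia, and the pair had 98.1 FPKM in hypoxia and 212 FPKM in normoxia, a log2 ratio of -1.11. The direction of TC030657 therefore holds only as long as the gene is read without its neighbour. TC004021 and its neighbour TC004023 together had 21.5 FPKM in hypoxia and 3.61 FPKM in normoxia, a log2 ratio of 2.54. That sum adds shorter pieces in hypoxia to each other. By mean level per base TC004021 had 3.60 FPKM in hypoxia and 3.14 FPKM in normoxia, a log2 ratio of 0.19. TC004023 had 12.1 FPKM in hypoxia and 3.38 FPKM in normoxia by that measure. The neighbours joined to TC009306 and TC011394 had no FPKM of their own in either library, so the pair sums equal those of the members. The joining transcripts did cover these neighbours. By mean level per base TC009307, beside TC009306, had 0 FPKM in hypoxia and 13.9 FPKM in normoxia. TC011393, beside TC011394, had 27.1 FPKM in hypoxia and 0 FPKM in normoxia. With joining transcripts left out, 32 of the 35 members still met the rule, but members without such a transcript could not change. Of the 4 that could, only TC011394 met the rule, with a log2 ratio of 2.15. TC030657 then stood at 0 in hypoxia, and TC009306 and TC004021 stood at 0 in normoxia.

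The remaining members are TC010486 and, named after their values were seen, TC002215, TC006464, TC001329, TC000881, TC004439, TC006850, TC009739, TC011654, TC014910, TC016246 and TC003715. An assembled transcript led the hypoxia value in each of them. The highest by level was TC000881, with 96.4 FPKM in hypoxia and 16.6 FPKM in normoxia, and the lowest in hypoxia was TC016246, with 12.8 FPKM in hypoxia and 2.79 FPKM in normoxia. The largest log2 ratio was that of TC002215, 2.91, with 20.4 FPKM in hypoxia and 2.62 FPKM in normoxia. In TC001329, 22.0 of the 26.6 FPKM in hypoxia belong to an unstranded fragment of 302 bases of which only 3 lie in exons of the gene, against 4.15 FPKM in normoxia, and the log2 ratio per base was 0.15. In TC006850, 57.1 of the 68.7 FPKM in hypoxia belong to an unstranded fragment of 210 bases, against 12.6 FPKM in normoxia, and the log2 ratio per base was 0.53. TC011654 kept the highest log2 ratio per base of this group at 1.58.

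In structure, which the rule did not use, the members were shorter at the median than the other genes. The reference transcript had a median of 876 bases in the members, against 1266 bases in the other genes of the level range and 1131 bases in the 55 genes at least 4-fold lower in hypoxia. This depended on how transcripts were summed: the set of 63 genes by reference transcripts alone had a median of 1149 bases. Transcripts of 500 bases or less made up 12 of the 35 members (34.3%, exact 95% binomial interval 19.1 to 52.2%), against 10.4% of the other genes and 9.09% of the lowered genes. Members with 1 or 2 exons numbered 16 (45.7%, 28.8 to 63.4%), against 22.2% of the other genes and 29.1% of the lowered genes. Single-exon genes numbered 6 (17.1%, 6.56 to 33.6%), against 9.06% of the other genes, which lies within the interval, and 3 of the 6 are the genes with identical values. These 3 are also among the 12 and the 16 above. With them counted as 1 gene, the median length of the members was 975 bases. The intervals treat genes as independent draws, which overlapping genes are not and genes with identical values may not be.

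The long end of the range was not missing. There were 3 members with 10 exons or more (8.57%, against 12.5% of the other genes): TC010626, TC011394 and TC011654. The longest span was the 129944 bases of TC004021 on ChLG3, with 8 exons. None of these long members was 4-fold higher per base. Their log2 ratios per base were 0.13 for TC010626, 0.32 for TC011394, 1.58 for TC011654 and 0.19 for TC004021. The 17 members that were 4-fold higher per base had a median length of 402 bases, 11 had 500 bases or less and 14 had 1 or 2 exons. That measure itself favours short genes, because it drops long genes whose hypoxia value sits on a short fragment and keeps the members with the reference transcript alone by construction, so their shorter length is no separate finding. Of these 17, 13 had separate intervals. Short transcripts also had wide intervals, and the part of that in the shortness of the members was not tested.

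**Figure D5:**
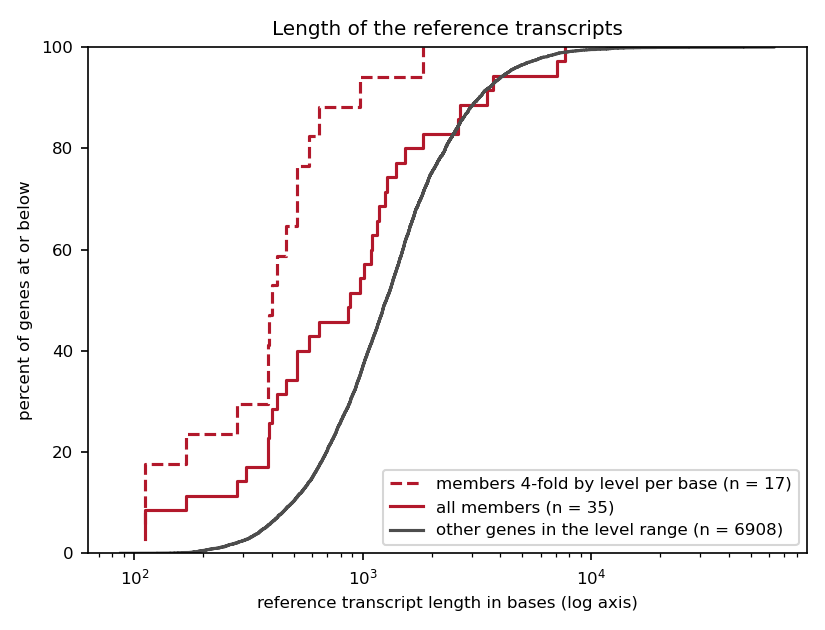
Cumulative percent of genes by reference transcript length in bases (log axis) for the 17 members 4-fold higher per base (dashed red), all 35 members (solid red) and the 6908 other genes in the level range (grey). The median is 402 bases for the 17 members, 876 bases for all members and 1266 bases for the other genes, and the measure that chose the 17 removes long genes with short leading fragments.

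The members were spread over the genome. ChLG7 held 6 of them, ChLG2 held 5, ChLG3, ChLG6 and ChLG9 held 3 each, ChLG4 and ChLG8 held 2 each and ChLG10 held 1. ChLG5 and ChLGX held 0 of 850 and 0 of 437 genes in the level range. Unplaced sequence held 10 of the members (28.6%, exact 95% binomial interval 14.6 to 46.3%), against 6.89% of the other genes in the level range and 9.09% of the genes at least 4-fold lower. The 3 genes with identical values are among these 10. Strand was balanced, with 19 members (54.3%) on the plus strand, against 50.9% of the other genes.

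No 2 members were direct neighbours. In the order of gene starts over both strands 0 of the 35 stood in a run, and only TC009952 and TC009953 became a run of 2 when 1 gene was allowed between members. With a mean of 1 to 1000 FPKM in place of 5 to 1000 FPKM, 3 runs of 2 genes appeared, each made of a member and a weakly expressed neighbour: TC009952 with the overlapping TC008890, TC009956 with TC009955, and TC012980 with TC005155. The 69 genes next to a member held 31 in the level range and 19 listed at 0 in both libraries. Of the 31, 3 were at least 2-fold higher in hypoxia (9.68%) and 5 at least 2-fold lower (16.1%), where 3.31% and 4.46% of all genes in the level range were, and their median log2 ratio was -0.03. The 3 are TC015750 and TC009957, described above, and TC012732, the neighbour of TC011761, with 17.1 FPKM in hypoxia and 4.40 FPKM in normoxia, a log2 ratio of 1.93. The intervals of TC012732, 8.49 to 25.7 FPKM in hypoxia and 0 to 8.81 FPKM in normoxia, overlap. The 5 are TC010304, TC007959, TC015805, TC007735 and TC015720, with log2 ratios from -3.32 to -1.06. By mean level per base TC007735 had a log2 ratio of -0.25, and the rest of the 5 stayed at least 2-fold lower. The genes beside the members thus had, at the median, about the same level in both libraries. The shares at least 2-fold higher and lower were both above those of the level range, on 3 and 5 genes.

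Gene lists were built from the identifiers in the study, which picked those genes from these same libraries, so they are no independent evidence. Over the level range, 0.504% of genes were members and 3.31% were at least 2-fold higher. Of 18 hypoxia-response genes, which include enzymes of sugar breakdown and growth regulators, 17 were in the level range, of which 0 were members and 4 were at least 2-fold higher, and the median log2 ratio of all 18 was 0.73. The study itself gave all 18 changes under 4-fold and listed some as lowered, so the median mixes both directions. TC014609, raised in the study, had a log2 ratio of -0.86 here, and TC010417, lowered there, had 0.63. The measures differ: the study compared read counts, and the values here are FPKM sums, which depend on the assembly. The study also reported qRT-PCR in its own direction for TC014609 and for the enzymes of the Krebs cycle, aconitate hydratase among them. The other genes of the list differed in the study's direction, but not all clearly. TC006543, outside the level range, had 0.0783 FPKM in hypoxia and 2.28 FPKM in normoxia, and TC001577 had a log2 ratio of 0.14. The 3 genes for a HIF hydroxylase and for Branchless, an FGF ligand toward which the tracheae of *Drosophila* grow, were in the level range, with 0 members, 3 at least 2-fold higher and a highest log2 ratio of 1.76. The antidiuretic factor genes gave 1 member of 2, both at least 2-fold higher, and the antimicrobial peptides 1 member of 2, the only one of them at least 2-fold higher. Of the Hsp70 family of chaperones, 2 of 2 genes were at least 2-fold higher and 0 were members. Of 2 chemosensory proteins 1 was in the level range, and it was at least 2-fold higher and no member. Of 3 genes of the cytochrome P450 system, which oxidizes hormones and foreign compounds, 2 were in the level range, with 0 members and 1 at least 2-fold higher. Genes outside the level range could not be members by the rule.

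Around the threshold the values form no gap. Just inside lay TC010486 (unplaced, 309 bases) with 14.7 FPKM in hypoxia and 3.57 FPKM in normoxia, a log2 ratio of 2.01, then TC000789 with 2.06 and TC030482 with 2.08. Just outside lay TC015822 with 112 FPKM in hypoxia and 28.3 FPKM in normoxia, a log2 ratio of 1.98, TC007220 with 8.64 FPKM in hypoxia and 2.12 FPKM in normoxia, a log2 ratio of 1.97, and TC013560 with 33.7 FPKM in hypoxia and 8.51 FPKM in normoxia, a log2 ratio of 1.97. The intervals of the ratios inside and outside the limit overlap widely.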

How the data were processed

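The authors trimmed the reads by quality, aligned them to the BeetleBase genome and assembled each library with Cufflinks around a reference annotation. The deposited values are FPKM with a confidence interval, 1 per transcript. Aligner, versions, build and annotation were not given in the sources used here. Positions follow the deposited files. The study's own differential test used read counts and was not repeated on FPKM. The files held 17071 reference transcripts each, and 7423 assembled transcripts in hypoxia and 7674 in normoxia. Each assembled transcript went to the gene sharing most of its exonic bases on that strand (6730 in hypoxia and 6986 in normoxia found one), and transcripts without strand could match either. Read depth is not carried by FPKM.

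FPKM were summed per gene, and half-widths of intervals were combined in quadrature, 1 half-width standing for 2 standard errors. The pseudocount of 0.1 FPKM understates the change of low genes. Values were not rescaled. Centring on the median moves every log2 ratio by 0.08 upwards. With 1 library per condition no test was run. Members, lists and comparisons were chosen with earlier results of these data known. Named by rule were the 10 members with the highest log2 ratio, the 10 with the highest FPKM in hypoxia, members with a name, members in runs and the 3 genes on either side of the threshold. Names come from the study's annotations, and 1 member matched a RefSeq symbol (assembly icTriCast1.1, by synonym). Alternatives were pseudocounts of 0.01 and 1 FPKM, other limits on the mean, centring, rescaling, other treatments of assembled transcripts, a fold of 2 and looser runs. Exact (Clopper-Pearson) binomial intervals were used for shares. Scripts were tested on simulated data. Python 3.11.15, numpy 2.4.6, pandas 2.3.3 and scipy 1.17.1 were used.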

Additional observations from a re-analysis of the deposited data

How the results depend on the processing

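The set of 35 depends on its limits and on how transcripts are summed. Without limits on the mean it held 64 genes, with a mean of 1 to 1000 FPKM 55 and with a fold of 2 it held 230, of which 51, 47 and 205 had separate intervals. By reference transcripts alone it held 63 genes, 12 of them shared with the 35, with 59 separate intervals, 6.35% with a single exon and a median length of 1149 bases. With assembled transcripts at least 80% within the gene it held 45 genes, 17 of them shared with the 35. By mean level per base, chosen after the data were seen and with the level range also set by that measure, it held 24 genes, 17 of them shared, with a median length of 441 bases. Over the 6943 genes of the original range the same measure gave 19. Pseudocounts of 0.01 and 1 FPKM, a mean of 10 to 1000 FPKM, centring, rescaling and leaving out joining transcripts gave 28 to 42 genes, and leaving out transcripts without strand, also chosen after the data were seen, gave 32, with TC001329, TC006850, TC010626 and TC012980 lost and TC004119 gained. The 0 genes in runs became 6 without limits on the mean or with a mean of 1 to 1000 FPKM, 4 after centring, 16 at a fold of 2, and 2 with 1 or 2 genes allowed between members or with each strand taken alone, the last chosen after the data were seen. The log2 ratio turned to -2.02 for TC011394 by reference transcripts alone, and to -2.63 for TC010626 with assembled transcripts at least 80% within the gene. No paired analysis was possible because there was 1 library per condition. The single libraries limit every value above, and the intervals state counting and assignment error only.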
